A study of Mus musculus with 24 samples.

Results

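The genes described here encode the nuclear subunits of oxidative phosphorylation, the mitochondrial pathway that turns the energy of nutrients into ATP. They were chosen by symbol alone: all genes whose name starts with Ndufa, Ndufb, Ndufc, Ndufs, Ndufv, Uqcr, Atp5 or the name of a cytochrome c oxidase subunit (Cox4 to Cox8), with the Sdh genes and Cyc1. The rule found 90 of the 19938 genes that had a probe set under their own name. For the 17 of them with more than 1 probe set, the one with the highest mean stands for the gene. Of the 90, 85 were tested, and Cox4i2, Cox7b2, Cox8b, Cox8c and Ndufa4l2 were not, since they lay above the median of an array on fewer than 3 of the 24 arrays. By role the 85 are 6 core and 28 supernumerary subunits of complex I, 7 assembly factors of complex I that the prefix brings in (Ndufaf1 to Ndufaf7), 4 genes of complex II, 9 of complex III, 11 of complex IV, 17 of complex V and 3 isoforms known from certain tissues. None of the 13 subunits encoded in mitochondrial DNA had a probe set under its own name, so the nuclear share of the pathway is described.

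The arrays measured messenger RNA of conventional dendritic cells (cDC) sorted from spleen as CD8+ or CD11b+ cells, in 8 groups of 3 arrays. The mice were females of 8 to 10 weeks, either NOD/ShiLt (NOD), a strain prone to autoimmune diabetes, or C57BL/6 (B6). For each subset and strain, one group had received CpG-A, an oligonucleotide that activates Toll-like receptor 9, and one had received PBS, with cells taken after 12 h. All RNA was amplified from small amounts before hybridization. Nothing in the labels tells whether the 3 arrays of a group stand for separate mice or pools, and the p-values therefore speak only of the spread among arrays, which may be technical. The summed level of cDC1 markers, genes typical of CD8+ cDC, was 14.13 to 14.23 in CD8+ NOD and 14.14 to 14.26 in CD8+ B6 cells after PBS, against 11.92 to 12.09 in CD11b+ NOD and 11.89 to 12.12 in CD11b+ B6 cells, and cDC2 markers ran the other way.

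In oxidative phosphorylation, complex I takes electrons from NADH and complex II takes them from succinate. Complexes III and IV pass them on to oxygen, and complex V, the ATP synthase, makes ATP from the proton gradient that this builds. All complexes but complex II combine subunits from nuclear and mitochondrial genes. Mouse dendritic cells cultured with Toll-like receptor ligands are known to shift from respiration towards glycolysis. Levels below are the deposited log2 values, differences are log2 differences with the standard error of the limma fit (n = 3 arrays a group), and "rose" or "fell" is used where the Benjamini-Hochberg adjusted p of limma over all 11365 genes tested was under 0.05. In such bulk samples fewer cells of a type and less RNA per cell cannot be told apart.

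Promoter sequences are shown for genes that moved in different ways after CpG. RefSeq windows of build GRCm38.p6, spanning the start of the gene, were found for 73 of the 90 genes, and both strands were searched for 5 sequences. The core site of NRF1, a factor known for its sites in respiratory genes, spelled GCATGCGC, occurred in 12 of the 73 windows (16.4%), against 2.8% of all 27025 windows. The ETS core CCGGAAG, read by the factor GABP, occurred in 17 (23.3%), against 9.12% of all windows, and 5 member windows held both. The estrogen-related receptor sequence AAGGTCA occurred in 9.59% of member windows and 4.66% of all windows, and the YY1 sequence AAGATGG in 12.3% and 6.48%. The sequence GAAANNGAA, found in interferon-responsive promoters, occurred in 8.22% of member windows and 8.57% of all windows. None of the 5 contains another. The 27025 windows, 1 a gene, include those of genes that were not tested here, and members were not set against genes of similar level. A match describes letters and not a bound site. The windows shown are those of Ndufs3, which had the largest fall in CD8+ B6 cells (chr2:90904672-90904971, minus strand), Ndufa6, which had the largest fall among members with the NRF1 core (chr15:82354242-82354541, minus strand), Uqcrh, which rose (chr4:116075021-116075320, minus strand), and AA467197, a paralogue of the member Ndufa4 that the rule does not take in (chr2:122637637-122637936, plus strand). Capitals mark matches to the 5 sequences on either strand.
Ndufs3: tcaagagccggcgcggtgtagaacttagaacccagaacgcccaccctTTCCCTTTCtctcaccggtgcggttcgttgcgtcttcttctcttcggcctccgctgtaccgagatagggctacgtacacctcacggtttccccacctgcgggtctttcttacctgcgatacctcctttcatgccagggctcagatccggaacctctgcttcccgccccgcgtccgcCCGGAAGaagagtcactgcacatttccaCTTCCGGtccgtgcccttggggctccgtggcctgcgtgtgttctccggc
Ndufa6: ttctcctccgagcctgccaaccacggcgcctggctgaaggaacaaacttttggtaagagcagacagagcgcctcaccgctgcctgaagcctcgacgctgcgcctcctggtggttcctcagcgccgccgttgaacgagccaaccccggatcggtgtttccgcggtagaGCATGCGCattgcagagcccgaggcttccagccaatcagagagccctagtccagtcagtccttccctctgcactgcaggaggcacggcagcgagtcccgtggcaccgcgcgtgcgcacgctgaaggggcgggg
Uqcrh: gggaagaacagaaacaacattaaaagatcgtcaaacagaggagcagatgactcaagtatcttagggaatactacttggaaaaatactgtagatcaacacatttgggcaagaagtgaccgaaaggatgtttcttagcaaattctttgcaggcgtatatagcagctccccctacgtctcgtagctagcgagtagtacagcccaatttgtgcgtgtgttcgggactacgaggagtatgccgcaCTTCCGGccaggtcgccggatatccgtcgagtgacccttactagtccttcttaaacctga
AA467197: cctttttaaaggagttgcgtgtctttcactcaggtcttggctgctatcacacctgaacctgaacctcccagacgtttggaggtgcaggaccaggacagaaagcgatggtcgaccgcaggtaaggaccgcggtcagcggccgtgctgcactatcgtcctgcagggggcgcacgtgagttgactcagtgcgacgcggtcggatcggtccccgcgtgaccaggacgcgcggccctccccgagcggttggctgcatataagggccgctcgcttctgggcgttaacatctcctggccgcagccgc
The Ndufs3 window held 2 ETS cores and 1 interferon sequence, that of Ndufa6 held 1 NRF1 core, that of Uqcrh held 1 ETS core, and that of AA467197 held none. Of the 12 members with an NRF1 core, 9 fell in CD8+ B6 cells after CpG, a share close to that of all tested members (78.8%).

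Most of the pathway was lower after CpG in CD8+ cDC of B6 mice. Of the 85 members 67 fell and 1 rose, where 36.2% of all genes fell and 21% rose. The median difference was -0.62 over the members and -0.09 over all genes, and 13 members fell by more than 1 on the log2 scale. Averaged over the 75 tested subunits, with assembly factors and tissue isoforms left out, the level was 8.94, 9.19 and 9.34 after CpG, against 9.72, 9.78 and 9.77 after PBS. Every CpG array was thus lower than every PBS array. For 75 members all 3 CpG arrays lay below all 3 PBS arrays, which held for 39.7% of all genes. Centring each array on its median over the tested genes moved the median of all genes from -0.09 to 0.15, and 49 members then fell and 4 rose. That median was 6.83 to 6.99 on the CpG arrays and 7.13 to 7.19 on the PBS arrays. The array medians named elsewhere are over all 19938 genes. The 36.2% and 21% of all genes belong to the fit without centring, and shares with it are not given. Relative to the median of all genes, the members' median was -0.52. Centring could not change this value, since it shifts all genes of an array alike.

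**Figure D1:**
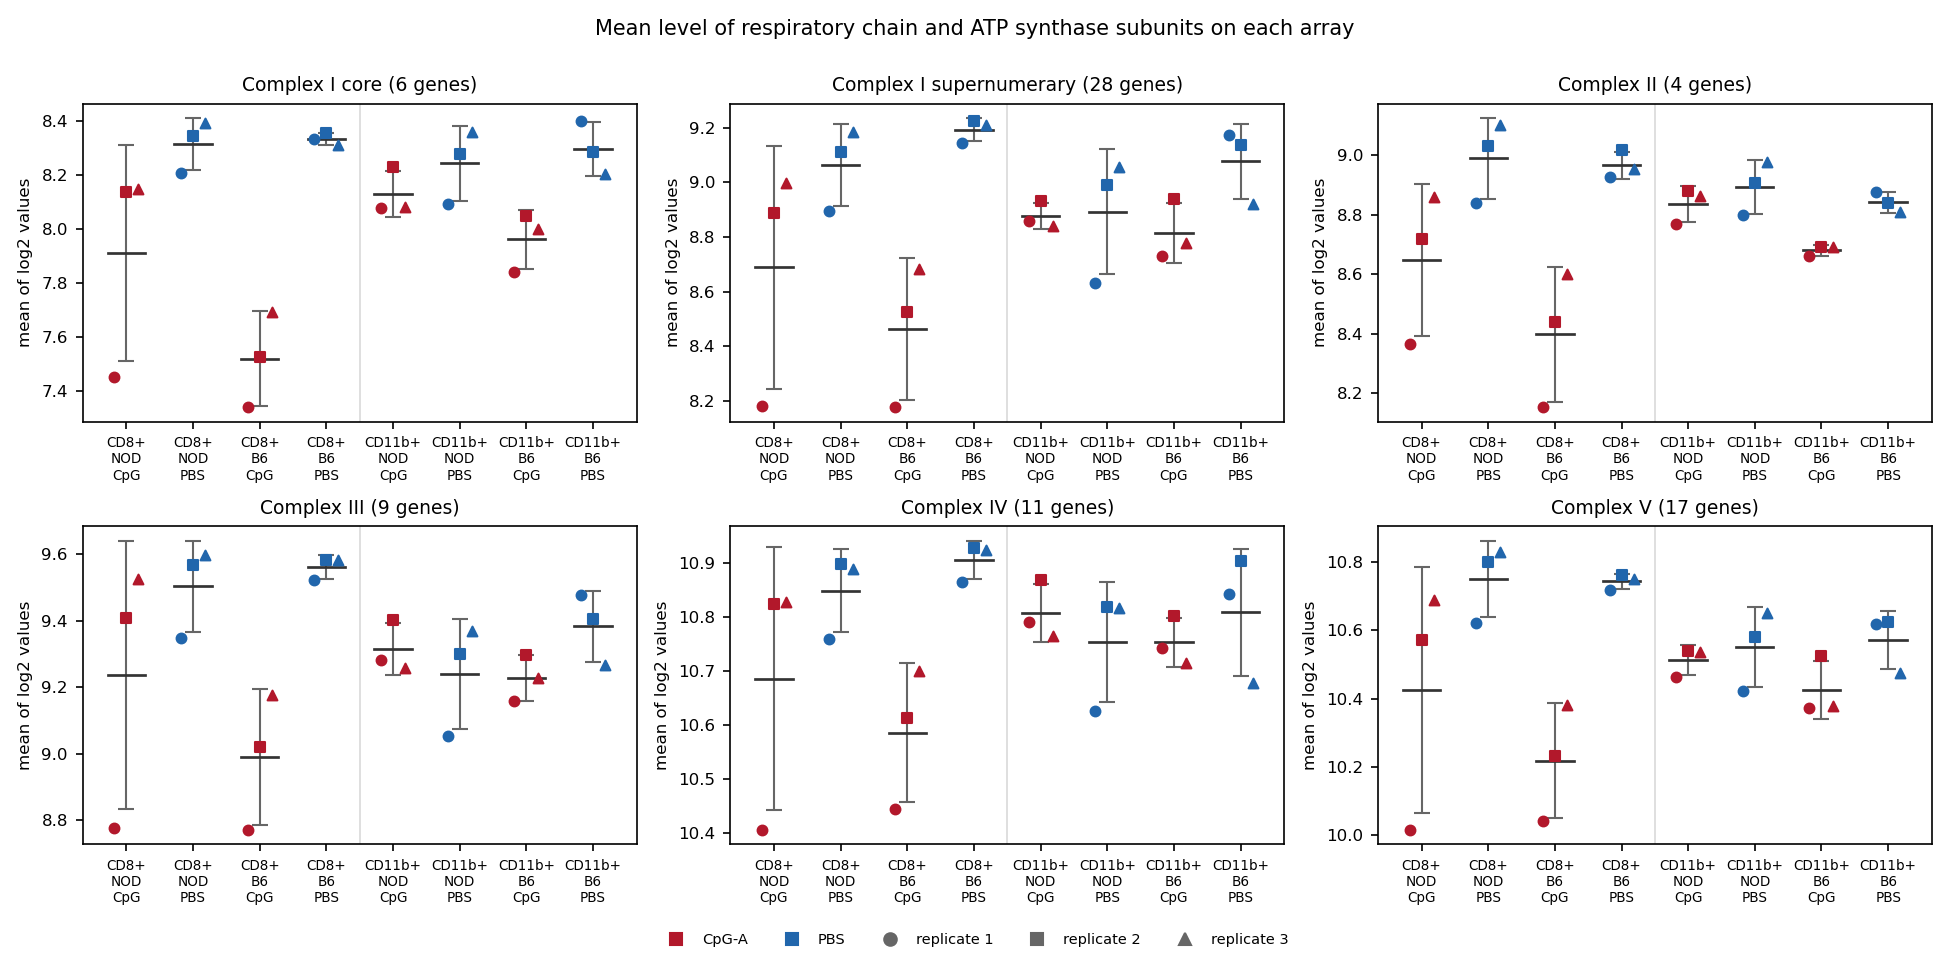
Mean of the deposited log2 values over the tested subunits of each complex (vertical axes, each with its own range) on each of the 24 arrays, by subset, strain and injection; points are arrays with the replicate number as shape, lines and bars are mean and SD. The complex I core lay at 7.34 to 7.69 on CD8+ B6 arrays after CpG and 8.31 to 8.35 after PBS, complex IV at 10.45 to 10.70 and 10.86 to 10.93, and replicate 1 of the CpG-treated CD8+ NOD arrays lay below the other replicates in every panel.

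All 13 members that fell by more than 1 belonged to complex I or its assembly. Of its core subunits, which carry the flavin and the iron-sulfur clusters, 5 of 6 fell in CD8+ B6 cells (median -1.01). Ndufs3 had levels of 7.41, 7.62 and 8.17 after CpG, against 9.11, 9.22 and 9.16 after PBS, a difference of -1.43 ± 0.20 (limma adjusted p = 2.74e-06). Ndufs8, an iron-sulfur subunit, had 7.44, 7.66 and 7.80 after CpG, against 8.80, 8.89 and 8.87 after PBS (-1.22 ± 0.18, adjusted p = 4.40e-06). In both genes the groups were far apart, with the spread on the CpG side. Ndufs7, which passes electrons on to ubiquinone, fell by 1.03, and Ndufv1, which binds NADH, fell by 0.997. Ndufs1, the largest iron-sulfur subunit, fell by 0.32, a call that median centring and quantile normalization ended. Ndufv2, the partner of Ndufv1, was the exception, with 8.91, 9.18 and 9.19 after CpG and 8.97, 8.93 and 9.02 after PBS (0.12 ± 0.13, adjusted p = 0.438), and its groups overlapped.

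Supernumerary subunits stabilise complex I without carrying electrons, and 23 of 28 fell in CD8+ B6 cells (median -0.69). Ndufb5 had 7.34, 7.56 and 7.89 after CpG, against 8.89, 8.99 and 8.99 after PBS (-1.36 ± 0.22, adjusted p = 1.55e-05). Ndufa6, whose promoter is shown above, had 7.25, 7.88 and 8.10 after CpG, against 8.89, 9.08 and 9.19 after PBS (-1.31 ± 0.22, adjusted p = 2.86e-05). Ndufc2 had 9.07, 9.25 and 9.77 after CpG, against 10.57, 10.66 and 10.61 after PBS (-1.25 ± 0.18, adjusted p = 3.41e-06). None of these 3 overlapped between groups, and no supernumerary subunit rose. Ndufb10 fell by 1.20 and Ndufb11 by 1.16. All 7 assembly factors fell (median -1.09). Ndufaf6 had 5.37, 5.05 and 5.30 after CpG, against 6.71, 6.52 and 6.21 after PBS (-1.24 ± 0.18, adjusted p = 4.54e-06), so its CpG arrays were all lower. They also lay below the array medians, and counted from those the fall was at least 0.69. Ndufaf4 fell by 1.22 and Ndufaf7, a methyltransferase that acts on a core subunit in human cells, by 1.09.

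Complex II is also an enzyme of the tricarboxylic acid cycle, and all 4 of its genes fell in CD8+ B6 cells. Sdha, its flavoprotein, had 8.63, 8.66 and 8.93 after CpG, against 9.40, 9.32 and 9.42 after PBS (-0.64 ± 0.11, adjusted p = 2.02e-05), with no overlap. The membrane anchors Sdhc and Sdhd fell by 0.60 and 0.52, and the iron-sulfur subunit Sdhb by 0.51, a call that median centring ended. In complex III 7 of 9 fell and 1 rose (median -0.70). Uqcr11, a small subunit, had 7.91, 8.45 and 8.83 after CpG, against 9.27, 9.44 and 9.47 after PBS (-0.997 ± 0.24, adjusted p = 0.00127). The core protein gene Uqcrc2 fell by 0.86, Cyc1, which encodes cytochrome c1, by 0.56, and Uqcrfs1, the Rieske iron-sulfur protein, by 0.43, the last ended by median centring. The hinge protein gene Uqcrh went the other way, with 11.56, 11.75 and 11.55 after CpG and 11.37, 11.41 and 11.35 after PBS (0.25 ± 0.09, adjusted p = 0.0218). All its CpG arrays were higher, but leaving out any of 3 of the 6 arrays ended the call.

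Complex IV, cytochrome c oxidase, had the median nearest to 0 among the complexes (-0.23), with 6 of 11 falling. Cox6a1 had 11.55, 11.56 and 11.81 after CpG, against 11.71, 11.77 and 11.73 after PBS (-0.10 ± 0.11, adjusted p = 0.476), and the groups overlapped. Cox5a (0.18), Cox5b (-0.14), Cox6c (-0.12) and Cox7a2 (-0.23) did not pass either. Cox7a2l is known as a factor that joins complexes III and IV into supercomplexes, and whether it does so in these strains was not tested. It had 10.21, 10.05 and 10.14 after CpG, against 11.03, 10.93 and 10.97 after PBS (-0.84 ± 0.09, adjusted p = 7.23e-08), with tight and separate groups. Ndufa4, once assigned to complex I and now to complex IV, had 9.82, 10.08 and 10.33 after CpG, against 10.62, 10.67 and 10.81 after PBS (-0.62 ± 0.16, adjusted p = 0.00231). Cox7b fell by 0.58 and Cox8a by 0.54, while Cox4i1 (-0.30) lost its call and Cox6b1 (-0.21) changed sign under median centring.

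In complex V 14 of 17 fell in CD8+ B6 cells (median -0.49). All 3 genes of the c ring, which encode the same mature protein, were among them. Atp5g1 had 8.75, 9.07 and 9.38 after CpG, against 10.02, 10.08 and 10.08 after PBS (-0.99 ± 0.20, adjusted p = 0.00016), and Atp5g2 and Atp5g3 fell by 0.93 and 0.63. Atp5h, of the stalk that holds the catalytic head, fell by 0.76. In the catalytic head itself, Atp5a1 fell by 0.26 and Atp5b by 0.30, calls that median centring ended. Differences between complexes were not tested. Beside these falls, 9 of 10 cDC1 markers fell (summed level 12.97 to 13.36 after CpG, against 14.14 to 14.26 after PBS), 5 of 10 NK cell markers rose (10.37 to 10.96 and 9.50 to 9.93), and of 7 plasmacytoid dendritic cell markers 2 rose and 2 fell (11.85 to 12.21 and 10.67 to 10.92). Of 5 neutrophil markers 3 rose (8.47 to 8.80 and 7.76 to 8.01), and of 6 genes shared by cDC subsets 3 fell and 2 rose (13.74 to 13.83 and 14.09 to 14.11). Their part in the result was not tested.

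**Figure D2:**
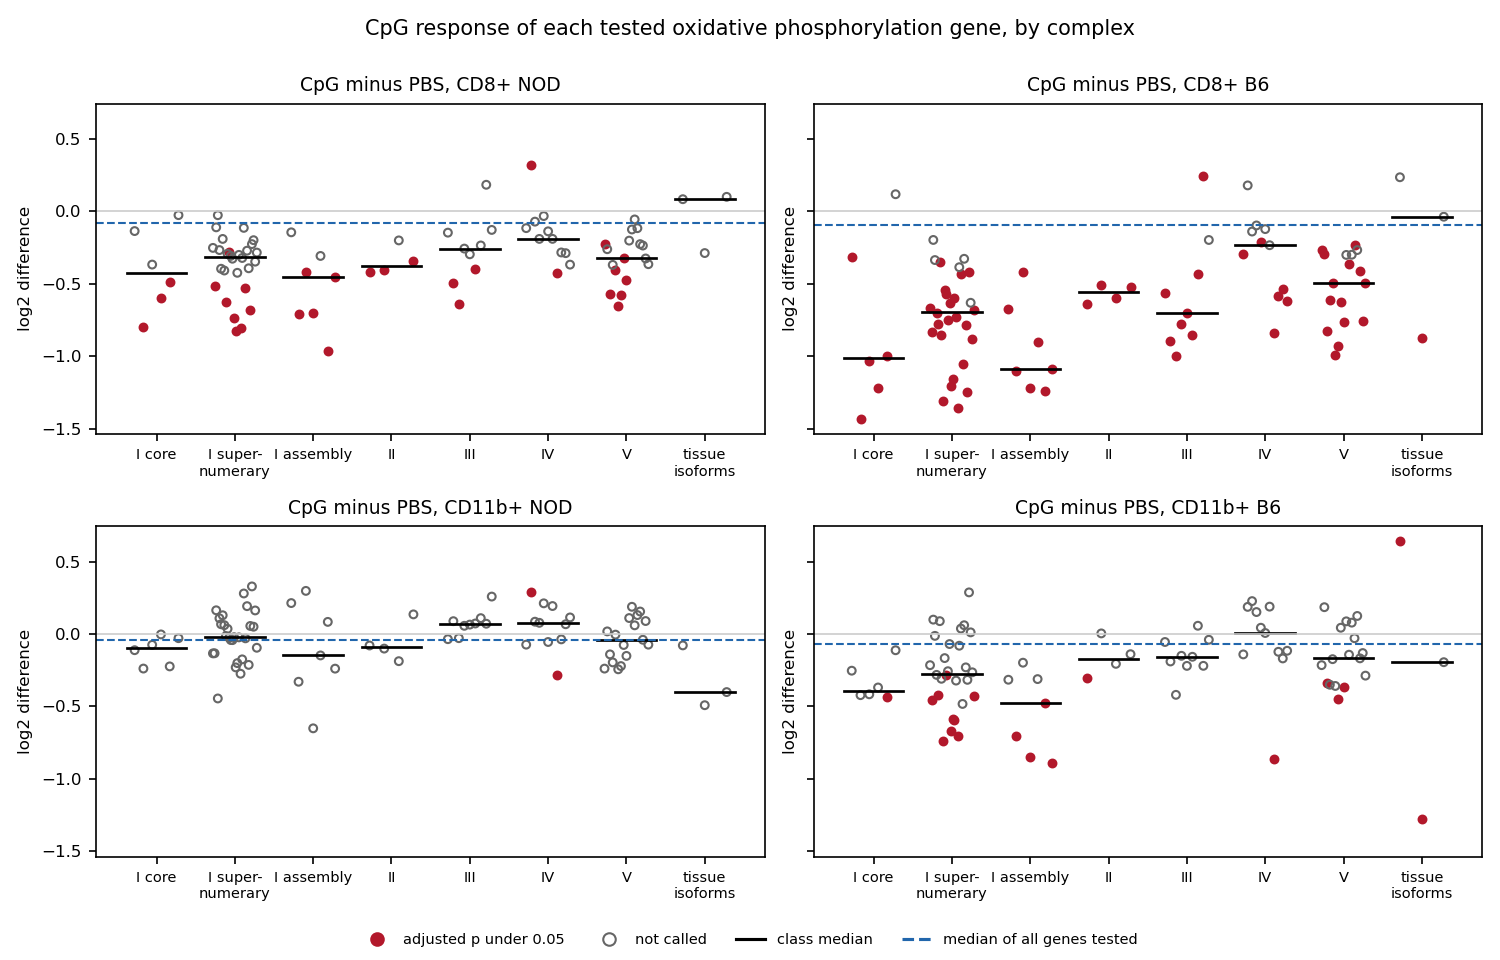
Log2 difference between CpG and PBS (vertical axis) of each tested member, by complex (horizontal axis), in each subset and strain; red points passed an adjusted p of 0.05, open points did not, black lines are class medians and the dashed line is the median of all genes tested. In CD8+ B6 cells 67 members fell, 2 of which (Atp5l and Cox6b1) lay just above 0 after median centring, and in CD11b+ NOD cells 2 members passed.

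In CD8+ cDC of NOD mice fewer members passed, and 1 array weighed heavily on the count. Of the 85 members 30 fell and 1 rose, where 25.3% of all genes fell and 15% rose, with a median of -0.30 over the members and -0.08 over all genes. The mean over the 75 subunits was 8.95, 9.55 and 9.64 after CpG, against 9.56, 9.74 and 9.79 after PBS. In all groups but CD11b+ B6 after PBS, replicate 1 had the lowest subunit mean. Here replicate 1 of the CpG arrays was far below the other replicates, and those lay at or near the lowest PBS array. Without it 11 members fell and 1 rose, where 15.8% of all genes fell, and the median was -0.09. Without replicate 3 of the CpG arrays 52 passed, and without replicate 2 or 3 of the PBS arrays 20 and 17. In a fit of these 2 groups alone 8 passed, and with median centring 21 fell and 2 rose. In the same comparison 7 of 10 cDC1 markers fell (summed level 13.20 to 13.93 after CpG, against 14.13 to 14.23 after PBS) and 4 of 10 NK cell markers rose (9.96 to 10.57 and 9.27 to 9.72). The summed levels of plasmacytoid (11.82 to 12.25 after CpG and 11.03 to 11.10 after PBS, 2 of 7 rose and 1 fell), neutrophil (8.60 to 9.60 and 7.87 to 8.06, 3 of 5 rose) and red pulp macrophage markers (11.69 to 12.03 and 10.83 to 11.19, 1 of 9 rose) were also higher on all CpG arrays, and that of cDC2 markers lower (9.99 to 10.19 and 10.24 to 10.38). The part of these markers was not tested.

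A few genes fell in CD8+ NOD cells with and without replicate 1. Ndufaf6 had 5.22, 5.71 and 6.14 after CpG, against 6.51, 6.84 and 6.63 after PBS (-0.96 ± 0.18, adjusted p = 0.000207), and -0.73 without the replicate. Ndufb11 had 9.17, 9.85 and 10.22 after CpG, against 10.46, 10.64 and 10.61 after PBS (-0.83 ± 0.17, adjusted p = 0.000668), and -0.54 without it. Neither gene overlapped between groups. Ndufs3 had 7.75, 8.73 and 8.86 after CpG, against 9.09, 9.31 and 9.34 after PBS (-0.80 ± 0.20, adjusted p = 0.00314), and -0.45 without it, but did not pass in the fit of these 2 groups alone. Atp5g2 (-0.58), Ndufaf7 (-0.45) and Cox7a2l (-0.42) passed in all 3 of these fits. Cox5a, a subunit of complex IV, was the member that rose, with 10.53, 10.81 and 10.54 after CpG and 10.27, 10.35 and 10.30 after PBS (0.32 ± 0.10, adjusted p = 0.0105), a call lost in the fit of these 2 groups alone. By class, 5 of 7 assembly factors fell, with 3 of 6 core and 8 of 28 supernumerary subunits of complex I, 3 of 4 genes of complex II, 3 of 9 of complex III, 1 of 11 of complex IV and 7 of 17 of complex V.

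In CD11b+ cDC of B6 mice the share of members that fell was close to that of all genes in the fit over all groups. Of the 85 members 20 fell (23.5%) and 1 rose, where 22.9% of all genes fell and 15.7% rose, with a median of -0.21 over the members and -0.07 over all genes. Without replicate 1 or 2 of the PBS arrays 11 and 13 passed, and without replicate 1 of the CpG arrays 9. With median centring 12 fell and 6 rose. A fit of these 2 groups alone called 36 members, of which 32 fell, where 25.4% of all genes fell. Assembly factors of complex I made up 4 of the 20. Ndufaf7 had 6.42, 6.58 and 6.56 after CpG, against 7.49, 7.24 and 7.51 after PBS (-0.89 ± 0.12, adjusted p = 2.22e-06). Cox7a2l had 10.09, 9.92 and 10.18 after CpG, against 10.96, 10.96 and 10.87 after PBS (-0.87 ± 0.09, adjusted p = 9.43e-08). Both were separate between groups, and a second probe set of Cox7a2l gave -1.20. Ndufaf4 fell by 0.85, Ndufa6 by 0.74 and Atp5g2 by 0.45. Of the complex I core Ndufv1 passed (-0.43) and of complex II Sdha (-0.30), both lost with median centring, and no gene of complex III passed. All 20 that fell were also among the 67 of CD8+ B6 cells (100% and 29.9% of these lists). A further comparison found 16 among the 30 of CD8+ NOD cells (80% and 53.3%). The lists are not independent, since a gene has the same estimate of spread in all groups. In CD8+ B6 cells 78.8% of members fell, and the overlap among all genes is not given.

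The tissue isoforms split in CD11b+ B6 cells. Cox6b2, the testis form of Cox6b1, had 6.21, 5.61 and 6.04 after CpG, against 7.48, 6.97 and 7.23 after PBS (-1.28 ± 0.17, adjusted p = 2.43e-06), and Cox6b1 did not pass (0.04). Cox6a2, the heart and muscle form of Cox6a1 that is also known from plasmacytoid dendritic cells, had 7.69, 7.81 and 7.46 after CpG, against 6.67, 7.22 and 7.16 after PBS (0.64 ± 0.13, adjusted p = 0.000569), and Cox6a1 did not pass (0.15). The groups of both isoforms were apart, in opposite directions. In CD8+ B6 cells Cox6b2 fell too, by 0.88, and Cox6a2 (0.24) did not pass. Cox6b2 averaged 5.78 after CpG there, within the range of the array medians (5.75 to 5.82), so the size of its fall is uncertain. Cox7a1, the muscle form of Cox7a2, passed in none of the 4 CpG comparisons. The 5 isoforms that were not tested had levels of 5.13 to 5.98 (Cox4i2), 3.25 to 3.66 (Cox7b2), 4.85 to 5.71 (Cox8b), 4.78 to 5.40 (Cox8c) and 4.46 to 5.14 (Ndufa4l2) over the 24 arrays, while the probe sets of Cox4i1, Cox7b, Cox8a and Ndufa4 were all tested. On the CD11b+ B6 arrays all 10 NK cell markers rose (summed level 13.69 to 14.58 after CpG, against 9.84 to 10.78 after PBS), 3 of 7 plasmacytoid markers rose, Cox6a2 among them (11.89 to 12.05 and 10.08 to 10.35), and 6 of 9 cDC2 markers fell (11.31 to 11.56 and 12.57 to 12.59), as did 6 of 10 cDC1 markers (11.53 to 11.69 and 11.89 to 12.12) and 4 of 6 genes shared by cDC subsets (13.74 to 13.94 and 14.05 to 14.14). Their part in the result was not tested.

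In CD11b+ cDC of NOD mice 1 member fell and 1 rose, where 5.69% of all genes fell and 9.58% rose, and the median was -0.03 over the members and -0.04 over all genes. Cox7a2l had 10.29, 10.41 and 10.39 after CpG, against 10.54, 10.83 and 10.55 after PBS (-0.28 ± 0.09, adjusted p = 0.0407), and Cox5a had 10.56, 10.66 and 10.50 after CpG, against 10.21, 10.27 and 10.35 after PBS (0.29 ± 0.10, adjusted p = 0.0391). Both were separate between groups, Cox7a2l lower and Cox5a higher after CpG, but leaving out any of 4 of the 6 arrays ended either call. Single arrays moved the count to 0 (replicate 1 or 2 of the CpG arrays), to 1 (replicate 1 or 2 of the PBS arrays) and to 4 (replicate 3 of the CpG arrays). With the replicate number as a block, which pairs these arrays, 3 rose and 4 fell, and with median centring 4 rose and 1 fell. On these arrays 7 of 10 NK cell markers rose (summed level 10.91 to 10.98 after CpG, against 9.10 to 9.35 after PBS). Plasmacytoid markers had a summed level of 11.47 to 11.75 after CpG and 9.97 to 10.31 after PBS (2 of 7 rose), red pulp macrophage markers 11.64 to 11.68 and 11.20 to 11.38 (1 of 9 rose and 1 fell), and cDC2 markers 12.11 to 12.23 and 12.59 to 12.73 (4 of 9 fell and 2 rose). The part of these markers was not tested. Cox7a2l was the only member that fell in all 4 CpG comparisons.

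AA467197, also called Nmes1, encodes a small mitochondrial protein that is a paralogue of Ndufa4 and can take its place in complex IV in human cells. In CD8+ NOD cells it had 6.06, 7.21 and 5.70 after CpG, against 4.47, 4.53 and 4.27 after PBS (1.90 ± 0.29, adjusted p = 1.51e-05). In CD8+ B6 cells it had 10.98, 11.12 and 10.96 after CpG, against 4.39, 4.69 and 5.13 after PBS (6.28 ± 0.29, adjusted p = 4.26e-14). It thus rose in both strains, and all B6 arrays after CpG lay far above those of NOD (-4.69 ± 0.29, NOD minus B6). In CD11b+ NOD cells it had 6.81, 6.14 and 6.20 after CpG, against 4.54, 4.04 and 4.16 after PBS (2.14 ± 0.29), and in CD11b+ B6 cells 11.02, 10.94 and 10.84 after CpG, against 5.49, 4.55 and 4.61 after PBS (6.05 ± 0.29). All PBS levels lay below the array medians (5.75 to 5.85), so the differences against PBS rest on values not known to be above background. Counted from the array medians instead, the rise was at least 0.53 in CD8+ NOD (where 2 of 3 CpG arrays exceeded the median), 5.23 in CD8+ B6, 0.59 in CD11b+ NOD and 5.13 in CD11b+ B6 cells on the log2 scale. The fitted response was smaller in NOD than in B6, with a difference (NOD minus B6) of -4.38 ± 0.40 in CD8+ cells (limma adjusted p = 3.26e-07) and -3.92 ± 0.40 in CD11b+ cells (adjusted p = 2.09e-06), and no alternative tried ended either call. NOD sequence variants under its probes were not tested. Ndufa4 itself did not pass in CD8+ NOD (-0.37), CD11b+ NOD (0.11) or CD11b+ B6 cells (-0.12).

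**Figure D3:**
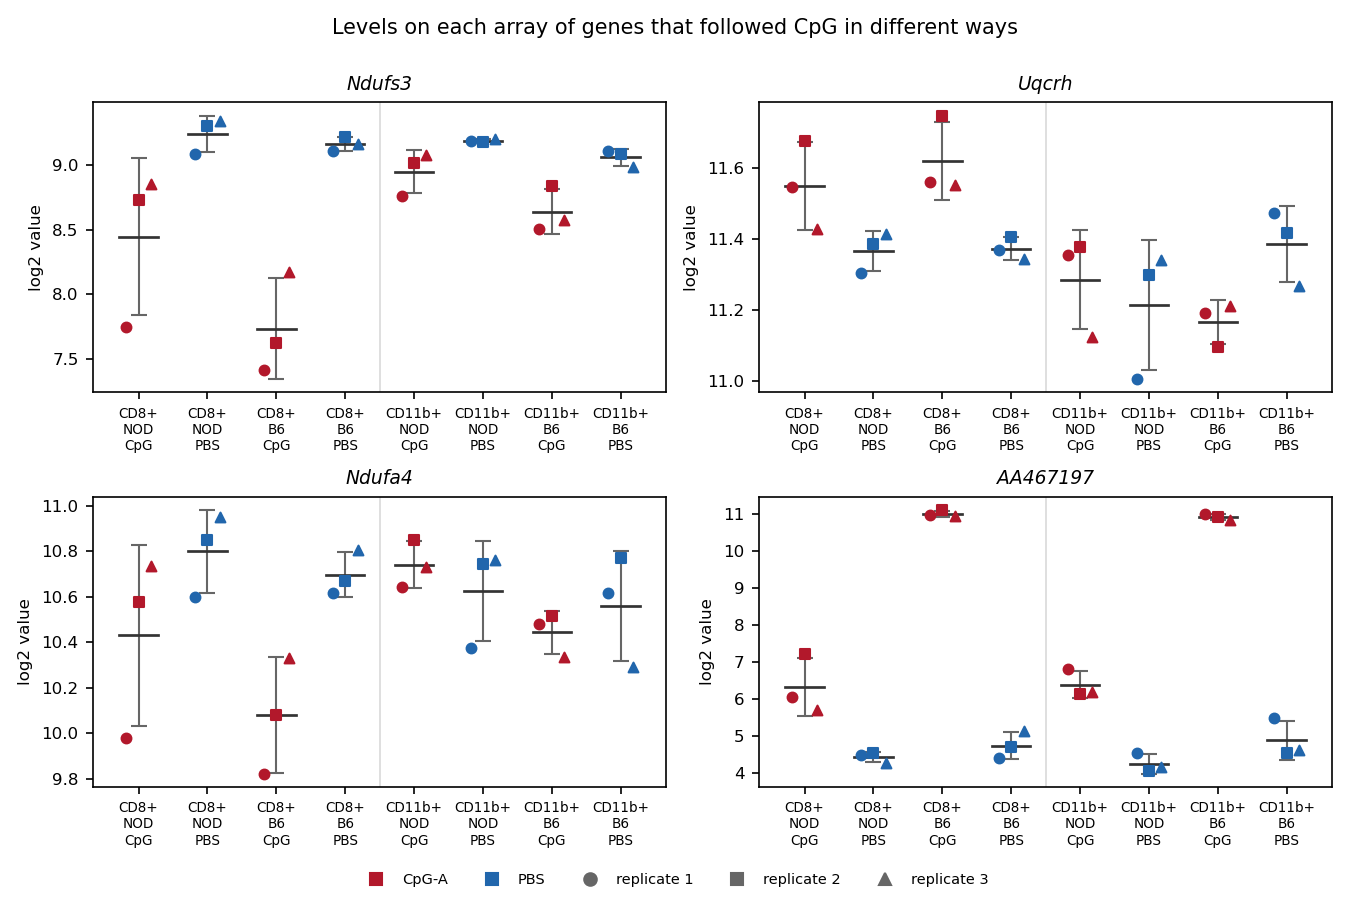
Deposited log2 values (vertical axes, each with its own range) of Ndufs3, Uqcrh, Ndufa4 and AA467197 on each of the 24 arrays, by subset, strain and injection; points are arrays, lines and bars mean and SD. On CD8+ B6 arrays after CpG Ndufs3 lay at 7.41 to 8.17 and Uqcrh at 11.55 to 11.75, and AA467197 lay at 10.84 to 11.12 on all B6 arrays after CpG and at 7.21 or less on all other arrays.

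Genes of neighbouring mitochondrial pathways were counted from lists by function. Of 16 tested genes of pyruvate dehydrogenase and the tricarboxylic acid cycle 11 fell and none rose in CD8+ B6 cells, against 7 that fell in CD8+ NOD, 9 in CD11b+ B6 and 0 in CD11b+ NOD cells. Over all genes 36.2% fell in CD8+ B6, 25.3% in CD8+ NOD, 22.9% in CD11b+ B6 and 5.69% in CD11b+ NOD cells, and 21% rose in CD8+ B6 cells. The largest falls in CD8+ B6 cells were those of Fh1, which encodes fumarase (-1.72), and of the isocitrate dehydrogenase subunits Idh3g (-1.19) and Idh3a (-1.16). Of 34 assembly factors that are no members 19 fell and 4 rose in CD8+ B6 cells, and Sco1, which brings copper to complex IV, rose by 2.22 there, by 1.71 in CD8+ NOD and by 1.44 in CD11b+ B6 cells. Of 12 genes of fatty acid oxidation 7 fell and 3 rose in CD8+ B6 cells, where the acyl-CoA dehydrogenase genes Acadl and Acadm rose by 1.62 and 1.51 and Hadh fell by 1.10. Electron carriers and coenzyme Q genes (9 of 16 fell, 2 rose), regulators of mitochondrial gene expression (7 of 17 fell, 2 rose) and mitochondrial antioxidants (3 of 6 fell, 1 rose) were mixed in CD8+ B6 cells, the regulators near the share of all genes that fell.

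Pdk1, a kinase that shuts down pyruvate dehydrogenase, fell in CD8+ NOD (-0.72), CD8+ B6 (-1.30) and CD11b+ B6 cells (-1.06, at least 0.89 from the array medians), and in CD11b+ NOD cells (-0.49) by a call that ended without 5 of the 6 arrays in turn. Acod1, which makes itaconate, an inhibitor of complex II, rose in CD8+ B6 (0.96) and CD11b+ B6 cells (1.98), by at least 0.29 and 1.28 from the array medians since all PBS arrays lay below them, and did not pass in CD8+ NOD (0.26) or CD11b+ NOD cells (0.53). Nos2, whose product nitric oxide blocks complex IV, was not tested, with levels of 4.88 to 5.44. Atpif1, the inhibitor of the ATP synthase, fell in CD8+ NOD (-0.40) and CD8+ B6 cells (-0.64) and did not pass in CD11b+ NOD (0.11) or CD11b+ B6 cells (0.01). Sod2, the mitochondrial superoxide dismutase, fell in CD8+ NOD (-0.79) and CD8+ B6 cells (-0.97). Cycs, cytochrome c, rose in CD11b+ B6 cells (0.61), a call lost with quantile normalization, and Tfam, which packages mitochondrial DNA, passed in none of the 4. Esrra, an estrogen-related receptor that drives respiratory genes, passed in none of the 4 either (0.20 in CD8+ NOD, 0.11 in CD8+ B6, 0.16 in CD11b+ NOD and 0.01 in CD11b+ B6 cells), and its coactivator Ppargc1b was not tested, with levels of 4.55 to 5.32.

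Few members passed between the strains after PBS. In CD8+ cells 3 members were lower and none higher in NOD than in B6, where 1.58% of all genes were lower and 2.02% higher, and in CD11b+ cells 2 were lower and none higher, where 3.16% were lower and 2.39% higher. By limma at an unadjusted p under 0.05, 2 members were higher and 8 lower in NOD CD8+ cells, and 2 higher and 5 lower in NOD CD11b+ cells. Shares of all genes at that threshold are not given. Without replicate 1 of the B6 CD8+ PBS arrays 1 passed in CD8+ cells, and median centring gave 4 lower and 2 higher in CD11b+ cells. Fits of the 2 groups alone called 7 in CD8+ and 5 in CD11b+ cells. Ndufs5, a supernumerary subunit of complex I, was lower in NOD throughout. In CD8+ cells after PBS it had 7.53, 8.18 and 8.07 in NOD, against 9.72, 9.77 and 9.83 in B6 (-1.85 ± 0.33, adjusted p = 0.000938). In CD11b+ cells after PBS it had 6.88, 8.44 and 7.80 in NOD, against 9.93, 9.70 and 9.02 in B6 (-1.84 ± 0.33, adjusted p = 0.000674). The strains did not overlap in either, nor after CpG, where the differences were -1.41 ± 0.33 in CD8+ and -1.80 ± 0.33 in CD11b+ cells. A further probe set, annotated to both Ndufs5 and its pseudogene, averaged 8.53 ± 0.22 in NOD and 8.27 ± 0.03 in B6 CD8+ cells after PBS (SD, n = 3 each), and 8.18 ± 0.42 in NOD and 8.13 ± 0.26 in B6 CD11b+ cells. The difference was thus seen with 1 of 2 probe sets, and NOD sequence variants under the probes were not tested.

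Ndufaf7 was the other member lower in NOD in both subsets after PBS. In CD8+ cells it had 6.53, 6.34 and 6.60 in NOD, against 7.05, 6.86 and 7.10 in B6 (-0.51 ± 0.12, adjusted p = 0.0118), a call that ended without any of 3 of the 6 arrays. In CD11b+ cells it had 6.92, 6.70 and 6.98 in NOD, against 7.49, 7.24 and 7.51 in B6 (-0.54 ± 0.12, adjusted p = 0.00528). All NOD arrays were lower in both. Cox7a2l was lower in NOD CD8+ cells after PBS (-0.40 ± 0.09, adjusted p = 0.0123), but the mean of its 2 probe sets gave -0.14 and did not pass. NOD sequence variants under the probes of Cox7a2l and Ndufaf7 were not tested. In CD8+ cells after PBS 4 of 7 B cell markers were higher in NOD, with a summed level of 10.79 to 11.87 in NOD and 9.96 to 10.66 in B6. In CD11b+ cells after PBS 5 of 10 NK cell markers (9.10 to 9.35 in NOD and 9.84 to 10.78 in B6) and 5 of 9 red pulp macrophage markers (11.20 to 11.38 and 11.70 to 12.58) were lower in NOD. The part of these markers was not tested.

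After CpG more members than after PBS were higher in NOD. In CD8+ cells 15 were higher (17.6%) and 1, Ndufs5, lower, where 12.2% of all genes were higher and 7.74% lower. The median was 0.25 over the members and 0.04 over all genes. The count hung on single arrays. It was 56 (55 higher) without replicate 1 of the NOD arrays, where 24.1% of all genes were higher, 5 without replicate 2 and 2 without replicate 3, and 2, 7 and 25 without replicate 1, 2 and 3 of the B6 arrays. Replicate 1 of the B6 arrays also had the lowest subunit mean of its group. Without replicate 1 of both strains, an alternative chosen after seeing the data, 44 were higher and 1 lower, where 17.5% of all genes were higher. With the replicate number as a block, which pairs these arrays, 25 were higher and 2 lower, and in a fit of these 2 groups alone none passed (limma, 11 at an unadjusted p under 0.05). Median centring gave 10 higher and 3 lower. Beside this, 6 of 10 cDC1 markers were higher in NOD (summed level 13.20 to 13.93 in NOD, against 12.97 to 13.36 in B6), as were 3 of 7 B cell markers (10.34 to 11.57 and 9.17 to 10.03), and their part was not tested. Ndufaf5, an assembly factor that hydroxylates a core subunit in human cells, had 6.59, 7.09 and 6.98 in NOD, against 5.65, 6.09 and 6.30 in B6 (0.88 ± 0.17, adjusted p = 0.00105), without overlap. Atp5g1 had 9.12, 10.11 and 10.30 in NOD, against 8.75, 9.07 and 9.38 in B6 (0.78 ± 0.20, adjusted p = 0.00737), and there replicate 1 of NOD lay within the B6 range.

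In CD11b+ cells after CpG 7 members were higher (8.24%) and 3 lower (3.53%) in NOD, smaller shares than the 13.7% and 9.12% of all genes. The median was 0.13 over the members and 0.03 over all genes. Cox6a2 had 6.70, 6.91 and 6.73 in NOD, against 7.69, 7.81 and 7.46 in B6 (-0.88 ± 0.13, adjusted p = 3.70e-05). Cox6b2 had 6.99, 6.78 and 6.63 in NOD, against 6.21, 5.61 and 6.04 in B6 (0.85 ± 0.17, adjusted p = 0.000753). The strains were apart for both isoforms, Cox6a2 lower and Cox6b2 higher in NOD. Ndufaf5 was higher (0.68 ± 0.17) and so was Atp5g1 (0.67 ± 0.20, ended without any of 3 of the 6 arrays), while Ndufa12, a supernumerary subunit, was lower (-0.76 ± 0.20). Without replicate 2 of the NOD arrays 5 passed, and median centring gave 5 higher and 6 lower. In this comparison 9 of 10 NK cell markers were lower in NOD (summed level 10.91 to 10.98 in NOD, against 13.69 to 14.58 in B6), 5 of 9 cDC2 markers were higher (12.11 to 12.23 and 11.31 to 11.56), and 4 of 7 B cell markers were higher (10.57 to 11.65 and 9.81 to 10.39). Their part was not tested.

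**Figure D4:**
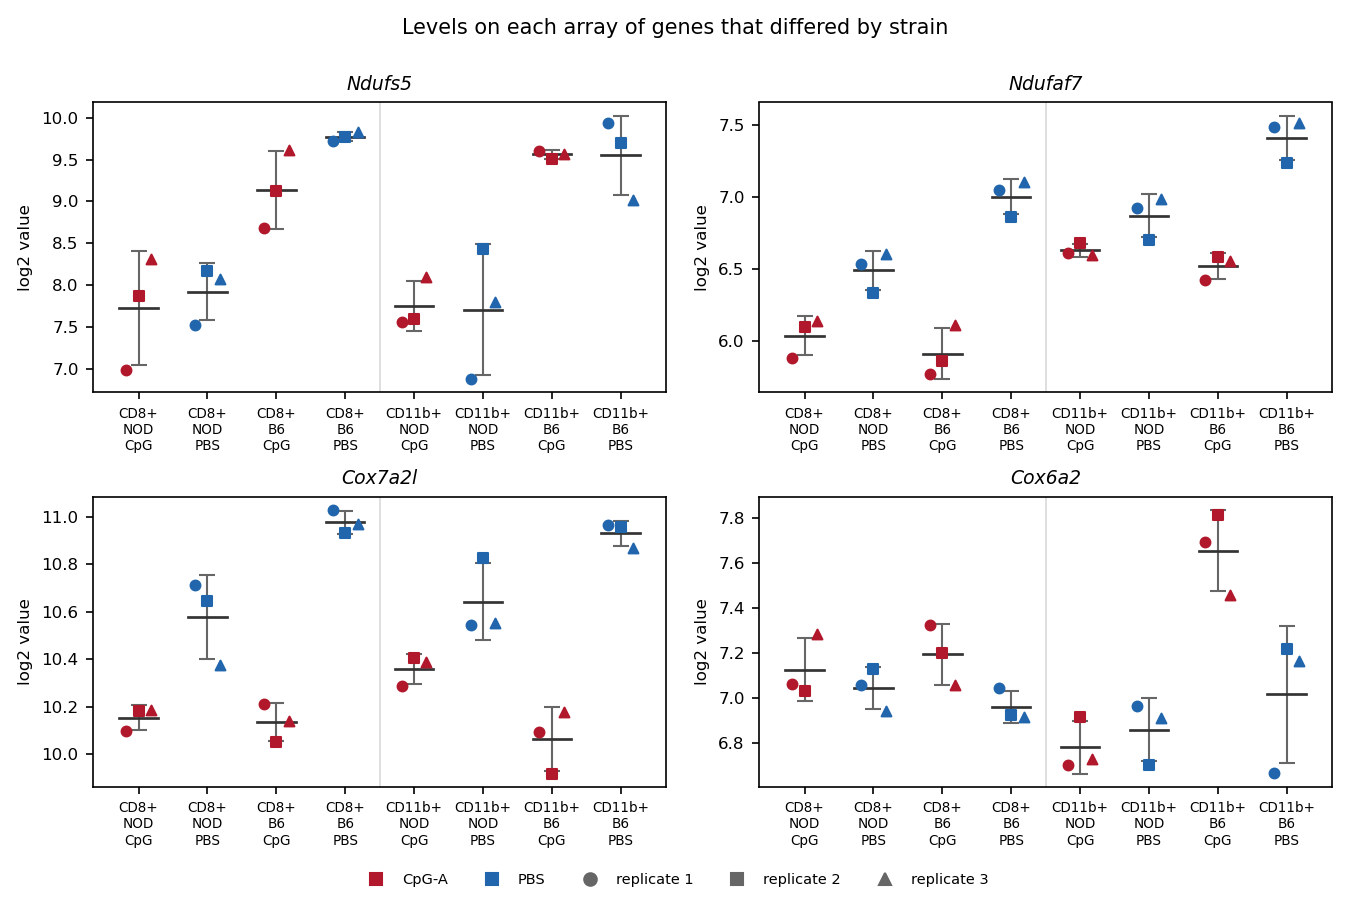
Deposited log2 values (vertical axes, each with its own range) of Ndufs5, Ndufaf7, Cox7a2l and Cox6a2 on each of the 24 arrays, by subset, strain and injection; points are arrays, lines and bars mean and SD. Ndufs5 lay lower in NOD than in B6 in all 4 pairs of groups, Ndufaf7 lower in NOD after PBS, and Cox6a2 was highest on CD11b+ B6 arrays after CpG (7.46 to 7.81).

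Whether CpG acted differently in the strains was tested as the NOD response minus the B6 response. In CD8+ cells this was positive for 80 of 85 members, with a median of 0.30 over the members and 0.04 over all genes, but 1 member passed, where 3.97% of all genes passed in either direction. This was Ndufaf7 (0.64 ± 0.17, adjusted p = 0.0307), a call that ended without any of 8 of the 12 arrays. By limma at an unadjusted p under 0.05, 13 members were positive and none negative. The share of all genes at that threshold is not given, so this count cannot be set against all genes. Without replicate 1 of the CpG-treated NOD arrays 39 passed, all positive (median 0.50), where 13.1% of all genes passed with a positive difference, and without replicate 1 of both strains 22, all positive, where 8.47% did. Without the NOD replicate, they were 4 of 6 core and 17 of 28 supernumerary subunits and 3 of 7 assembly factors of complex I, 6 of 9 genes of complex III, 3 of 11 of complex IV and 6 of 17 of complex V, and none of complex II. Ndufaf4 (0.99 ± 0.21), Ndufs3 (0.98 ± 0.21) and Ndufs7 (0.96 ± 0.18) were then highest. That fit kept replicate 1 of the CpG-treated B6 arrays, which also had the lowest subunit mean of its group. In CD11b+ cells 2 members passed with a positive and 1 with a negative difference, where 4.34% of all genes passed. They were Ndufaf7 (0.65 ± 0.17, adjusted p = 0.0263), Cox7a2l (0.59 ± 0.13, adjusted p = 0.0105, lost with median centring) and Cox6a2 (-0.72 ± 0.19, adjusted p = 0.032). In these cells Ndufaf7 averaged 6.87 in NOD and 7.41 in B6 after PBS, and 6.63 and 6.52 after CpG. Without replicate 1 of the B6 PBS arrays 1 passed. Median centring left 1 positive and 1 negative, and a fit of these groups alone called 6.

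Few members passed between the subsets after PBS. In NOD 4 members were higher and 2 lower in CD8+ than in CD11b+ cells, where 10.5% of all genes were higher and 11.1% lower, and in B6 likewise 4 were higher and 2 lower, where 9.46% were higher and 12.1% lower. Ndufaf6 had 6.51, 6.84 and 6.63 in CD8+ cells, against 5.37, 5.72 and 5.59 in CD11b+ cells of NOD mice (1.10 ± 0.18, adjusted p = 6.43e-05), and differed by 0.71 ± 0.18 in B6. Every CD8+ array was higher, and with the CD11b+ NOD arrays below the array medians the difference there was at least 0.87. Ndufs4, an accessory subunit needed for stable complex I in mice, was higher in CD8+ cells by 0.42 in NOD and 0.49 in B6, and Atp5g3 by 0.45 and 0.47. Cox6b2 was lower in CD8+ cells (-0.82 in NOD and -0.57 in B6), as was Ndufaf7 (-0.38 and -0.41). With the replicate number as a block, which pairs these arrays, 9 were higher and 2 lower in B6, and median centring gave 10 higher and 2 lower in NOD and 11 higher and 2 lower in B6. Fits of the 2 groups alone called 11 in NOD and 18 in B6. In NOD 3 passed without replicate 2 or 3 of the CD8+ arrays or replicate 1 of the CD11b+ arrays.

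After CpG more members than after PBS were lower in CD8+ cells, but in NOD a smaller share of members than of all genes. In NOD 11 were lower (12.9%) and 4 higher (4.71%), where 23.9% of all genes were lower and 14.4% higher. The median was -0.18 over the members and -0.06 over all genes. Without replicate 1 of the NOD CD8+ arrays 3 were lower and 5 higher and the median was 0.04, without replicate 3 of them 27 passed, without replicate 2 of the CD11b+ arrays 8, in a fit of these 2 groups alone 4, and median centring gave 6 lower and 8 higher. In B6 26 were lower (30.6%) and 1, Uqcrh, higher, where 24.3% of all genes were lower and 12.7% higher. The median was -0.31 over the members and -0.07 over all genes. Without replicate 1 of the B6 CD8+ arrays 10 passed, without replicate 2 of the CD11b+ arrays 13, and median centring gave 16 lower and 4 higher. Ndufs3 had 7.41, 7.62 and 8.17 in CD8+ cells, against 8.51, 8.84 and 8.57 in CD11b+ cells of B6 mice (-0.91 ± 0.20, adjusted p = 0.0012), and Uqcrh had 11.56, 11.75 and 11.55, against 11.19, 11.09 and 11.21 (0.45 ± 0.09, adjusted p = 0.000351). The subsets were apart in both genes, in opposite directions. After CpG the summed level of NK cell markers was 13.69 to 14.58 in CD11b+ B6 and 10.37 to 10.96 in CD8+ B6 cells. In NOD it was 10.91 to 10.98 in CD11b+ and 9.96 to 10.57 in CD8+ cells. The part of these markers was not tested.

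The response to CpG in CD8+ cells minus that in CD11b+ cells differed for 2 members in NOD, where 6.75% of all genes passed, and for 7 in B6, where 13.2% passed. In NOD they were the assembly factors Ndufaf6 (-1.05 ± 0.26, adjusted p = 0.0158, lost in a fit of these groups alone) and Ndufaf3 (-0.72 ± 0.16, adjusted p = 0.00916). Ndufaf6 averaged 5.56 after PBS and 5.64 after CpG in CD11b+ NOD cells, below the array medians there (5.75 to 5.83). A fall of Ndufaf6 in those cells could thus not be seen. In NOD 12 members passed without replicate 3 of the CpG-treated CD8+ arrays. With the replicate number as a block, which pairs the subsets, 6 passed in NOD and 16 in B6, where 10% and 17.7% of all genes did, and fits of the groups alone called 1 and 26. By limma none was positive in NOD, also at an unadjusted p under 0.05, where 16 were negative and the share of all genes is not given. In B6 the response was lower in CD8+ cells for Ndufs3 (-1.01 ± 0.29), Ndufc2 (-0.93 ± 0.25), Ndufs8 (-0.85 ± 0.25), Ndufs4 (-0.71 ± 0.19), Uqcrc2 (-0.70 ± 0.19) and Atp5g3 (-0.67 ± 0.18) and higher for Uqcrh (0.47 ± 0.13). Ndufs4 had 9.24, 9.42 and 9.48 after CpG, against 9.79, 9.82 and 9.79 after PBS in CD8+ B6 cells, and 9.50, 9.76 and 9.54 after CpG, against 9.29, 9.37 and 9.28 after PBS in CD11b+ B6 cells. It was lower after CpG in the first and, without passing, higher in the second. Without replicate 1 of the CpG-treated B6 CD8+ arrays 2 passed, without replicate 3 of them 15, and without replicate 3 of the PBS-treated CD11b+ arrays 4. The summed level of NK cell markers was 13.69 to 14.58 after CpG and 9.84 to 10.78 after PBS in CD11b+ B6 cells. In CD8+ B6 cells it was 10.37 to 10.96 and 9.50 to 9.93. Their part in these differences was not tested.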

How the data were processed

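Amplified RNA of 24 samples was hybridized to Affymetrix arrays. The deposited values are log2 intensities of 35556 probe sets that the authors normalized with RMA and Partek, per the submitters' processing notes, with versions not given there; they run from 1.92 to 14.12. The labels name a GeneChip of the Mouse Genome series, but the probe set numbers match another platform's annotation, so the array model is unsettled. Depth does not apply to arrays, and precision is limited by 3 arrays a group. All table columns were used.

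The platform annotation lists 23410 of these probe sets, 21789 with 1 symbol and 1621 with several, and 12146 are unnamed here. Each of 19938 genes was represented by its probe set of highest mean. The 6 member probe sets with several symbols (Cox7c, Ndufb4 and Ndufs5 with a pseudogene or a near copy) were set aside. Genes that exceeded the median of an array on 3 or more arrays (11365) were tested with limma 3.58.1 in R 4.3.3, as group means with a trended prior and 16 residual degrees of freedom, Benjamini-Hochberg adjusted over all of them at 0.05. The steps were tested on simulated data. Members and gene lists were chosen with earlier results of these data known. Any member could be named, up to 8 of the largest called changes a comparison, the tissue isoforms beside their counterparts, up to 3 called genes a pathway list and a fixed set of related genes, of which Ucp2 has no probe set under its own symbol here.

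Alternatives were the filter, the probe set rule, quantile normalization, median centring, the prior, fitting only the groups compared, the replicate block and leaving out each array. Median centring used the median of each array over the tested genes. Omitting replicate 1 of both CpG-treated CD8+ groups, and the alternatives for genes that are no members, were added after seeing the data. Same-numbered replicates were taken as pairs where every pair of deviations from group means correlated above 0.1. This held for the CpG comparisons in CD8+ NOD (0.177 to 0.336) and CD11b+ NOD (0.153 to 0.213), NOD minus B6 in CD8+ cells after CpG (0.242 to 0.546) and PBS (0.197 to 0.288), and the 4 subset comparisons (lowest 0.103), and not for CD8+ B6 (0.058 to 0.182), CD11b+ B6 (-0.109 to 0.137) or NOD minus B6 in CD11b+ cells.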

Additional observations from a re-analysis of the deposited data

Results flagged for a closer look

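The results here stood out because the response to CpG differed between strains or subsets by a test of that difference itself (limma interaction term, n = 3 arrays in each of 4 groups). In every one of these tests a smaller share of the 85 members passed than of all genes. As NOD response minus B6 response, 1 member passed in CD8+ cells, Ndufaf7 (0.64), where 3.97% of all genes passed. In CD11b+ cells 3 passed, Cox6a2 (-0.72), Ndufaf7 (0.65) and Cox7a2l (0.59), where 4.34% of all genes did. As CD8+ response minus CD11b+ response, 2 passed in NOD, Ndufaf6 (-1.05) and Ndufaf3 (-0.72), where 6.75% of all genes passed. In CD11b+ NOD cells Ndufaf6 averaged 5.56 after PBS and 5.64 after CpG, below the array medians, so a fall there could not be seen. In B6 7 passed, where 13.2% of all genes did. They were Ndufs3 (-1.01), Ndufc2 (-0.93), Ndufs8 (-0.85), Ndufs4 (-0.71), Uqcrc2 (-0.70), Atp5g3 (-0.67) and Uqcrh (0.47). Outside the subunits, the response of AA467197 was smaller in NOD than in B6, with log2 differences of -4.38 in CD8+ cells and -3.92 in CD11b+ cells, fitted on PBS levels below the array medians. Of these calls, those of Ndufaf7 and Cox6a2 ended without any of 5 to 8 of the 12 arrays, that of Ndufs8 without any of 6, while leaving out no single array ended those of Cox7a2l, Ndufs4, Ndufaf6, Ndufaf3 and AA467197. Median centring did end the call of Cox7a2l, and a fit of the groups alone that of Ndufaf6.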

How the results depend on the processing

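Over all comparisons, 115 counts of called members stayed within 1.5 times of the reported one under the alternatives that keep all arrays, and 29 did not. Where a count under an alternative or at an unadjusted p stands without the share of all genes, it cannot be set against all genes. Median centring gave 5 called for CpG in CD11b+ NOD cells, 5 and 6 for NOD minus B6 after PBS in CD8+ and CD11b+ cells, and 12 and 13 for CD8+ minus CD11b+ after PBS in NOD and B6. It also moved the members' median for CpG in CD8+ B6 cells to -0.37 and turned Cox6b1 (0.0313) and Atp5l (0.0144) to positive there. This is by construction, since centring shifts each array by its median over the tested genes. Fitting only the groups compared, which leaves fewer arrays for the spread, gave for CpG 8 in CD8+ NOD and 36 in CD11b+ B6 cells; for NOD minus B6 7 and 5 after PBS in CD8+ and CD11b+ cells and 0 after CpG in CD8+ cells (limma, 11 at an unadjusted p under 0.05); for CD8+ minus CD11b+ 11 and 18 after PBS in NOD and B6 and 4 after CpG in NOD; and for the response differences 0 (8 unadjusted) and 6 between strains in CD8+ and CD11b+ cells and 1 and 26 between subsets in NOD and B6. With the replicate block, counts were 7 for CpG in CD11b+ NOD cells, 27 for NOD minus B6 after CpG in CD8+ cells, 5 after PBS in CD11b+ cells, 11 for CD8+ minus CD11b+ after PBS in B6, and 6 and 16 for the subset difference of the response in NOD and B6; no other count moved by over 1.5 times. The cause of these block changes was not tested. Without a trended prior and without the filter none passed for CpG in CD11b+ NOD cells (limma, 10 unadjusted for each), and without the filter none for the strain difference in CD8+ cells (14 unadjusted), where the mean of probe sets gave 2. Quantile normalization gave 4 for NOD minus B6 after PBS in CD11b+ cells, and the stricter filter 1 for the subset difference in NOD.

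Leaving out 1 array at a time gave, for CpG, 12 to 52 in CD8+ NOD, 55 to 69 in CD8+ B6, 0 to 4 in CD11b+ NOD and 9 to 18 in CD11b+ B6 cells. For NOD minus B6 it gave 1 to 3 after PBS and 2 to 56 after CpG in CD8+ cells, and 5 to 8 after CpG in CD11b+ cells. For CD8+ minus CD11b+ it gave 3 to 6 after PBS and 8 to 27 after CpG in NOD, and 10 to 35 after CpG in B6. For the response differences it gave 0 to 39 and 1 to 4 between strains in CD8+ and CD11b+ cells, and 2 to 12 and 2 to 15 between subsets in NOD and B6. The arrays behind these limits are named beside each result. Replicate 1 of the CpG-treated CD8+ NOD arrays also moved 5 medians over members, so that leaving out 1 array gave -0.44 to -0.09 for CpG in CD8+ NOD cells, 0.13 to 0.43 for NOD minus B6 after CpG in CD8+ cells, -0.31 to 0.04 for CD8+ minus CD11b+ after CpG in NOD, 0.15 to 0.50 for the strain difference of the response in CD8+ cells and -0.44 to -0.09 for the subset difference in NOD. Omitting replicate 1 of both strains, added after seeing the data, gave 45 for NOD minus B6 after CpG in CD8+ cells and 22 for the strain difference. With 3 arrays a group, small differences in either direction can be missed.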
